A study of Homo sapiens with 12 samples.

Results

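UTP14C and ALG11, HM13, and the parent genes UTP14A and MCTS1 belong to 2 loci in which a reverse-transcribed copy of an mRNA landed inside another gene. These 5 genes, of 58780 in the count files, were chosen by name: the copy UTP14C, its host ALG11 and its parent UTP14A, and HM13, the host of the copy MCTS2, with the parent MCTS1. They were named with the weak or opposite response of these loci to the knockdowns already known from these data, so their changes describe them and are not independent evidence of such a response. All 5 were among the 26688 genes with enough counts to be tested. They were measured in Flp-In T-REx HEK293 cells, a human embryonic kidney line, 2 days after transfection of small interfering RNAs (siRNAs), by strand-specific sequencing of polyadenylated RNA. There were 4 groups of 3 libraries: control (control siRNA), SAFB1 KD (siRNA against SAFB, the gene of the SAFB1 protein), SLTM KD (siRNA against SLTM) and triple KD (siRNAs against SAFB, SAFB2 and SLTM together). According to the study's methods, each single knockdown also received negative control siRNA to match the total dose of triple KD. A knockdown of SAFB2 alone was not analysed here.

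SAFB1, SAFB2 and SLTM are related nuclear RNA-binding proteins, and the study asks what they do to transposon-derived sequence that sits within genes. A retrocopy derives instead from a gene: reverse transcriptase of a retrotransposon copies a spliced mRNA back into the genome. The copy thus lacks the introns of its parent and can be carried in the transcript of a host. The study lists such copies, as pseudogenes, among the SAFB targets beside transposons. UTP14A is a nucleolar protein of the small-subunit processome, the particle that cuts and folds the precursor of 18S ribosomal RNA, and UTP14C is its copy on an autosome. ALG11 is a mannosyltransferase that extends the lipid-linked sugar used for protein N-glycosylation. HM13 encodes signal peptide peptidase, an aspartyl protease that cuts signal peptides within the membrane of the endoplasmic reticulum. MCTS1 works with DENR in the recycling of small ribosomal subunits and in reinitiation of translation, and MCTS2 is its intronless copy, imprinted in mouse and human.

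The knockdowns lowered their targets. SAFB fell from 232 CPM ± 2.27 (SD, n = 3) in control to 45.3 in SAFB1 KD and 38.2 in triple KD, SLTM from 116 ± 1.17 to 20.5 in SLTM KD and 25.0 in triple KD, and SAFB2 from 126 ± 2.49 to 29.1 in triple KD, while SAFB2 rose to 209 in SAFB1 KD (CPM are counts scaled to a common library size adjusted by TMM). The libraries held 56856228 to 75533510 gene counts, and replicates differed beyond counting error by 2.14% (biological coefficient of variation). That value is common to all genes tested and is not the spread of each member. The HEK293 markers PAX2, EYA1, NEFL and NEFM were at 1 CPM or more in every library. The summed level of these 4 was 210.3 to 217 CPM in control, 235 to 245 in SAFB1 KD, 195.5 to 199.9 in SLTM KD and 161 to 163 in triple KD, and its part in the results below was not tested. NEFL made up most of this sum, at 147 to 228 CPM over all libraries. Of the 4 colon epithelium markers CDX2 stood at 27.3 to 33.3 CPM, and of the 4 fibroblast markers COL1A1 stood at 11.5 to 13.7 and COL3A1 at 1.28 to 2.40, over all libraries. The others of these lists, and all of the 4 squamous and 4 leukocyte markers, were below 1 CPM in every library.

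The 2 copies sit differently in their hosts. UTP14C lies at chr13:52024691-52033600 (GRCh38, plus strand) within ALG11 at chr13:52012391-52079232, on the same strand. In GENCODE release 44, all 2301 coding bases of UTP14C fall in the annotated 3′ UTR of the canonical ALG11 transcript, and 11 of the 18 annotated ALG11 transcripts hold the whole coding copy in their exons. Only 2 of the 18 are spliced across it. MCTS2 lies at chr20:31547379-31548081 (plus strand) within HM13 at chr20:31514428-31577923. None of its 546 coding bases are in an exon of the canonical HM13 transcript, 13 of the 29 HM13 transcripts are spliced across them, 5 have some of them in exons, and 1 of those 5, annotated as a retained intron, contains all of them. The parents are both on the X chromosome, UTP14A at chrX:129906121-129929761 and MCTS1 at chrX:120594010-120621159 (both plus strand).

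**Figure D1:**
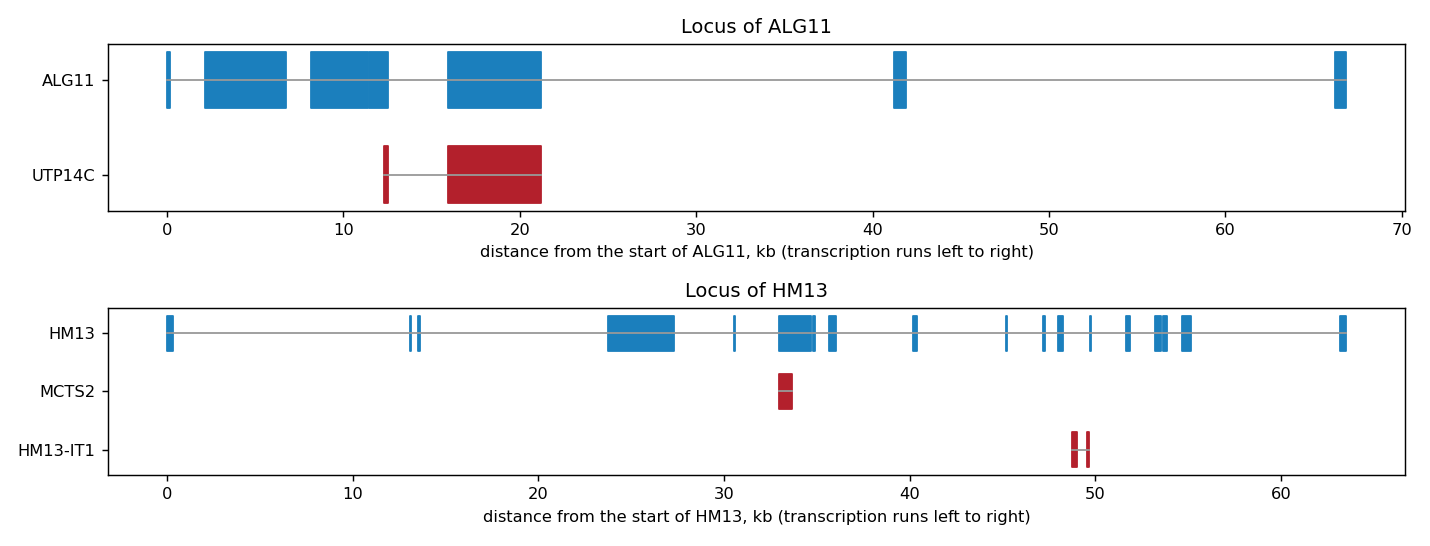
Exons of the hosts (blue, merged over all annotated transcripts) and of the genes within them (red), against the distance in kb from the start of the host. Both exons of UTP14C lie inside exons of ALG11, 700 of the 703 bases of MCTS2 lie within a merged exon of HM13, and the noncoding HM13-IT1 lies outside HM13 exons.

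The copies remain close to their parents in sequence. Over 2298 aligned coding bases UTP14C and UTP14A were 94.8% identical, with a longest identical run of 169 bases, and over 546 bases MCTS2 and MCTS1 were 92.9% identical, with a longest run of 79. The coding sequence of UTP14A is split over 15 exons and that of MCTS1 over 6, whereas each copy has 1. The beginnings of MCTS2 and MCTS1 are shown because they carry the mark of retrocopying: the first 30 coding bases are continuous in the copy (chr20:31547504-31547533), but in the parent they stretch over chrX:120604237-120605425, with 11 bases before an intron. Capitals mark the bases that differ.
MCTS2: atgttcaagaaGtttgatgaaaaGgaaaGt
MCTS1: atgttcaagaaAtttgatgaaaaAgaaaAt

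The word GAAGAA, a purine-rich sequence of the kind the study relates to SAFB and SR protein binding, was frequent in the UTP14 pair. The coding sequence of UTP14C held it 11 times, or 4.78 times per kb, and that of UTP14A 13 times, or 5.61 per kb. Of 20046 canonical coding sequences, 65.0% held the word at least once, the median was 0.835 per kb, and UTP14C and UTP14A stood at the percentiles 96.3 and 97.7. MCTS1 and MCTS2 did not hold it, ALG11 held it 2 times and HM13 3 times. The study also describes SAFB targets as rich in adenine. Adenine made up 33.9% of the coding bases of UTP14C, 33.2% in UTP14A, 35.0% in MCTS1 and 32.6% in MCTS2. It made up 27.9% in ALG11 and 21.6% in HM13, beside a median of 25.1% over all coding sequences. The reverse complement, TTCTTC, was absent from the UTP14 pair, and 43.98% of coding sequences held it. A count of words is a description of the sequence and not of binding. The aligned 30-base stretch richest in the word is shown for the copy (chr13:52030023-52030052) and the parent (chrX:129921464-129921493, both plus strand), with GAAGAA in capitals.
UTP14C: gcaGAAGAAagaccagtggcagagGAAGAA
UTP14A: ggaGAAGAAagaccagtggcaGAAGAAGAA

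In triple KD the host ALG11 rose, the copy UTP14C fell, and HM13 and MCTS1 fell, all by less than 2-fold. UTP14A, the parent of UTP14C, was not called different from control. Of the 5 members 1 was called higher and 3 lower (adjusted p under 0.05, edgeR's quasi-likelihood test adjusted over all genes tested), in a comparison in which 40.3% of all tested genes were called, 19.4% higher and 20.9% lower. The libraries of 4 members did not overlap with control, as was the case for 48.1% of all genes tested. In bulk RNA, a change in all cells and a change in the share of some cells cannot be told apart.

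**Figure D2:**
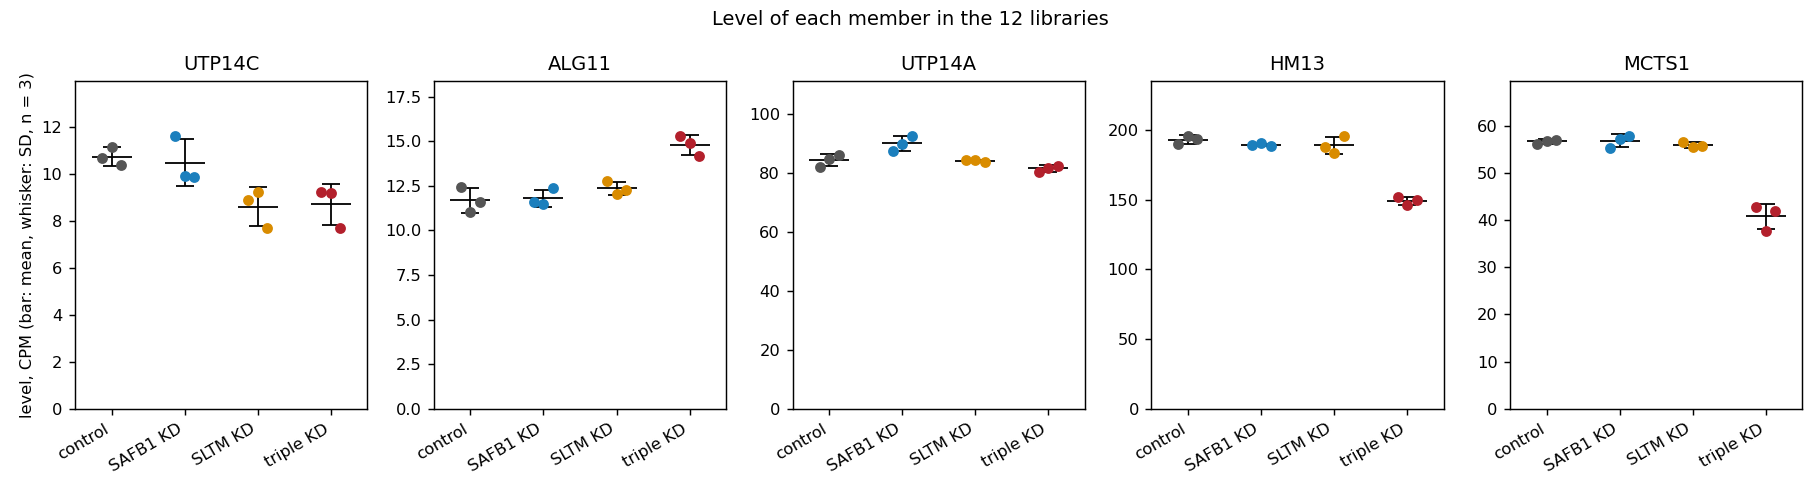
Level of the 5 members in CPM in each library (points), with the mean (bar) and SD (whisker, n = 3) of each group; each axis starts at 0. The 3 triple KD libraries lie above all others for ALG11 and below all others for HM13 and MCTS1, and for UTP14C the SLTM KD and triple KD libraries both lie below control.

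UTP14C, the copy, stood at 10.7, 11.1 and 10.4 CPM in the control libraries and at 11.6, 9.90 and 9.88 in SAFB1 KD. It stood at 8.87, 9.24 and 7.67 CPM in SLTM KD and at 9.23, 9.20 and 7.70 in triple KD. All 6 libraries that received the SLTM siRNA were thus below all 3 control libraries, whereas SAFB1 KD overlapped with control. The log2 fold change was -0.32 in SLTM KD (95% interval -0.45 to -0.18, adjusted p = 0.000496) and -0.30 in triple KD (-0.43 to -0.17, adjusted p = 0.000127), and -0.03 in SAFB1 KD (-0.16 to 0.10, adjusted p = 0.848). UTP14C was the single member called in SLTM KD, where 9.26% of all genes tested were called (5.65% lower) and the libraries of 23.9% did not overlap with control. Its change in triple KD did not depart detectably from both single knockdown changes added together (0.05, interval -0.14 to 0.24, adjusted p = 0.797), nor did triple KD differ detectably from SLTM KD (0.02, interval -0.12 to 0.16, adjusted p = 0.882). The sum leaves out SAFB2, which triple KD also lowered, so it is not complete, here and for the other members.

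The counts behind these levels are small for libraries of this depth: 446 to 830 reads per library for UTP14C and 697 to 1033 for ALG11. UTP14C lay above SLTM KD and triple KD in SAFB1 KD. It was 0.29 higher on the log2 scale in SAFB1 KD than in SLTM KD (adjusted p = 0.00149), and triple KD minus SAFB1 KD came to -0.27 (adjusted p = 0.000953). Both calls rested on SAFB1 KD replicate 1, the highest of its group, and without it the values were 0.20 (adjusted p = 0.0777) and -0.17 (adjusted p = 0.0667).

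ALG11, the host of UTP14C, stood at 12.4, 11.1 and 11.6 CPM in control, at 11.6, 11.5 and 12.4 in SAFB1 KD and at 12.8, 12.1 and 12.3 in SLTM KD. In triple KD it stood at 15.3, 14.9 and 14.2 CPM, above all 9 other libraries. The log2 fold change against control was 0.34 in triple KD (95% interval 0.24 to 0.45, adjusted p = 8.69e-08), compared with 0.01 in SAFB1 KD (-0.09 to 0.12, adjusted p = 0.934) and 0.09 in SLTM KD (-0.02 to 0.19, adjusted p = 0.417). Triple KD was also higher than SAFB1 KD by 0.33 (adjusted p = 4.75e-07) and than SLTM KD by 0.26 (adjusted p = 4.55e-05). The rise exceeded the sum of the single knockdowns by 0.24 (0.09 to 0.39, adjusted p = 0.0128), a call that was lost without control replicate 1 (0.20, adjusted p = 0.0598).

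In SLTM KD and triple KD the copy took a smaller share of the counts given to UTP14C and ALG11 together. Within a library, the ratio of UTP14C counts to ALG11 counts was 0.859, 1.01 and 0.895 in control, 1.004, 0.864 and 0.799 for SAFB1 KD, 0.695, 0.766 and 0.625 for SLTM KD and 0.602, 0.617 and 0.543 for triple KD. All SLTM KD and triple KD libraries were below all control libraries. The ratio differed among the 4 groups (exact permutation test over 15400 groupings, p = 0.00123, adjusted p = 0.00165 over 4 ratios). This locus was chosen with its response known, so these p-values only describe it. The adjustment includes the ratios to other hosts described below, whose outcome the choice of genes fixed, which lowers the adjusted p. Against control it changed by -0.41 on the log2 scale in SLTM KD and by -0.65 in triple KD, each with a two-sided exact permutation p of 0.10, the smallest that 3 libraries against 3 allow, and by -0.05 in SAFB1 KD (exact permutation p = 0.70). The counts of both genes summed came to 22.4 CPM ± 0.601 for control, 22.3 ± 0.913 for SAFB1 KD, 20.96 ± 0.896 for SLTM KD and 23.5 ± 1.44 for triple KD (SD, n = 3). The sum in triple KD overlapped with control (exact permutation p = 0.40), as did that in SAFB1 KD (exact permutation p = 1.0). In SLTM KD the highest sum, 21.6 CPM, was below the lowest in control, 21.9 (exact permutation p = 0.10, the smallest possible).

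The ratio depends on how shared bases were counted. In release 44 all 5529 exon bases of UTP14C are also exon bases of ALG11 on the same strand, and they make up 35.2% of the exon bases of ALG11. The counter used by the authors drops reads that overlap exons of more than 1 gene on the strand counted, so the release 29 models behind the files must have differed from these to give UTP14C any counts. Which bases of the locus were counted for which gene is not known here, and the part of this split in the opposite changes of the pair was not tested.

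**Figure D3:**
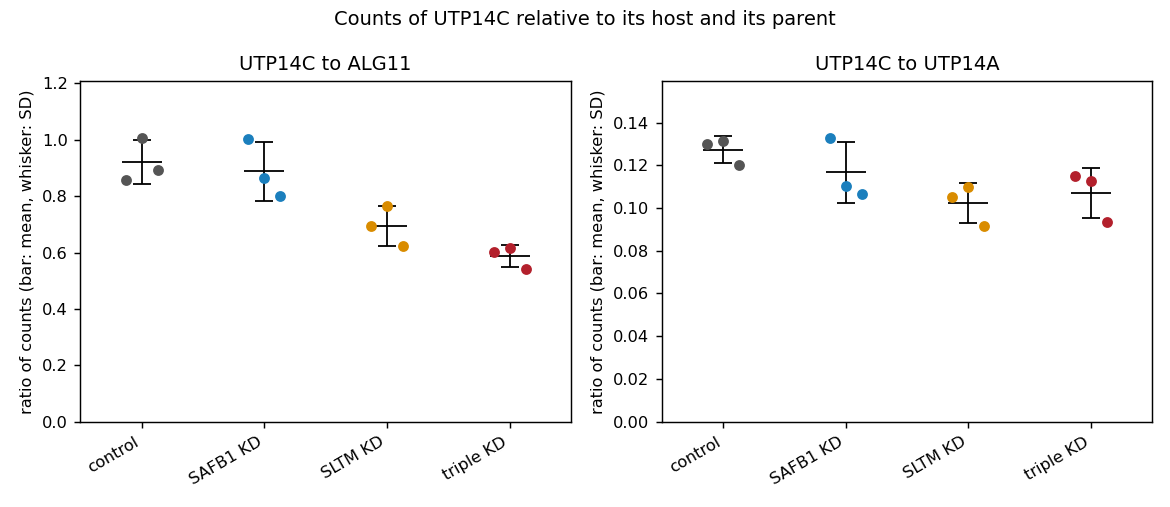
Counts of UTP14C divided by those of ALG11 (left) and of UTP14A (right) in each library (points), with the mean (bar) and SD (whisker) of 3 libraries. The ratio to ALG11 is 0.543 to 0.617 in triple KD and 0.859 to 1.01 in control, and the ratio to UTP14A shows smaller differences.

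UTP14A, the parent, changed little. It stood at 81.9, 84.7 and 86.1 CPM in control, 87.5, 89.8 and 92.5 for SAFB1 KD, 84.2, 84.1 and 83.5 for SLTM KD and 80.3, 81.6 and 82.3 for triple KD. It was the 1 member called in SAFB1 KD, where its libraries lay above control by 0.09 on the log2 scale (95% interval 0.04 to 0.14, adjusted p = 0.0136), in a comparison with 9.66% of genes called (5.04% higher) and 25.2% not overlapping. This call was lost when control replicate 1 or 2 or SAFB1 KD replicate 2 or 3 was left out (adjusted p = 0.152, 0.0685, 0.0576 and 0.126). In triple KD the log2 fold change was -0.05 (-0.10 to 0.0027, adjusted p = 0.132), and in SLTM KD it was -0.0060 (-0.06 to 0.05, adjusted p = 0.951).

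Between knockdowns, triple KD minus SAFB1 KD came to -0.14 for UTP14A, called lower (adjusted p = 9.24e-06), and its departure from the summed single knockdown changes was -0.14 (adjusted p = 0.00427). It was higher in SAFB1 KD than in SLTM KD by 0.10 (adjusted p = 0.00528), but not without SAFB1 KD replicate 3 (adjusted p = 0.0581). The ratio of UTP14C to UTP14A had a geometric mean of 0.127 in control, which compares with 0.116 for SAFB1 KD, 0.102 for SLTM KD and 0.107 for triple KD. It did not pass the test among the 4 groups (exact permutation p = 0.109, adjusted p = 0.109 over 4 ratios). Compared with control, the ratio changed by -0.32 on the log2 scale in SLTM KD and by -0.25 in triple KD. All libraries of both groups were below all control libraries (exact permutation p = 0.10 each, the smallest possible). In SAFB1 KD the libraries overlapped with control (-0.13, exact permutation p = 0.40).

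HM13, the host of MCTS2, stood at 189.8, 195.9 and 193.4 CPM in control, 189.2, 190.3 and 188.7 for SAFB1 KD, 187.8, 183.4 and 195.8 for SLTM KD and 151.8, 145.9 and 149.8 for triple KD. The 3 triple KD libraries were far below all 9 others, which overlapped among themselves. The log2 fold change in triple KD was -0.37 (95% interval -0.42 to -0.33, adjusted p = 7.06e-22), a fall of 22.8%. In SAFB1 KD it was -0.03 (-0.07 to 0.02, adjusted p = 0.553) and in SLTM KD -0.03 (-0.08 to 0.01, adjusted p = 0.508), and the departure of triple KD from the summed single knockdowns was -0.31 (-0.38 to -0.25, adjusted p = 3.91e-12).

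MCTS2 itself had 0 counts in all 12 libraries, which allows up to 3 counts over the 12 together by counting error alone. Since 700 of its 703 bases are also HM13 exon bases in release 44, reads from it may have been dropped as shared, and the row of 0 does not measure its expression. HM13-IT1, a noncoding RNA on the same strand within HM13, had 13 to 42 counts per library and was not called in any comparison with control (log2 fold change -0.11 in triple KD, adjusted p = 0.794).

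MCTS1, the parent of MCTS2, fell in triple KD as HM13 did. It stood at 56.1, 56.7 and 57.0 CPM in control, 55.3, 57.2 and 57.9 for SAFB1 KD, 56.5, 55.4 and 55.6 for SLTM KD and 42.7, 37.6 and 42.0 for triple KD. As for HM13, the 3 triple KD libraries were below all 9 others, and triple KD replicate 2 was the lowest. The log2 fold change in triple KD was -0.48 (95% interval -0.54 to -0.41, adjusted p = 2.10e-19), the largest of the 5 members and a fall of 28.2%. In the single knockdowns it was 0.0027 (SAFB1 KD, interval -0.06 to 0.07) and -0.02 (SLTM KD, interval -0.08 to 0.04), and the departure from their sum was -0.46 (-0.55 to -0.37, adjusted p = 2.69e-12).

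**Figure D4:**
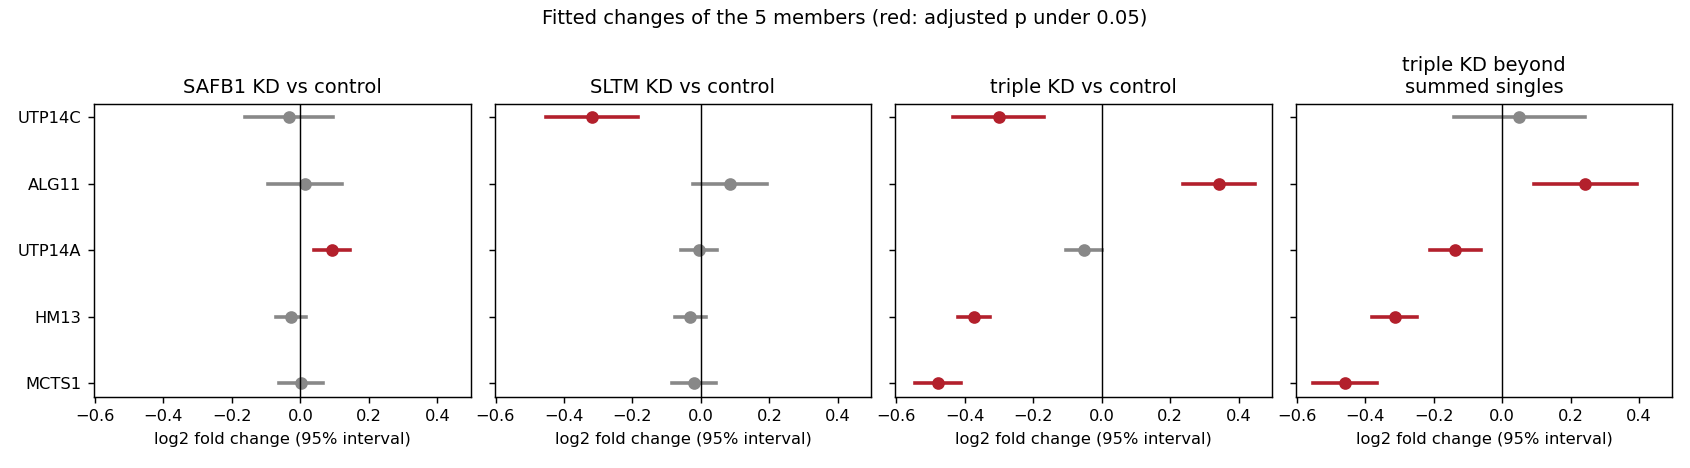
Log2 fold change of the 5 members (points) with 95% intervals of the edgeR fit (lines), in the 3 comparisons with control, which share the control libraries, and for the departure of triple KD from the summed single knockdowns. Red marks an adjusted p under 0.05; 1 member passed in each single knockdown and 4 in triple KD and in the departure.

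Against a 2-fold change none of the members passed in any comparison (edgeR's glmTreat, smallest adjusted p = 1), and neither did most genes: 0.955% of those tested passed in triple KD. The size of the members' changes in triple KD, 0.30 to 0.48 for the 4 that were called, stood beside a median absolute log2 fold change of 0.29 over all called genes. In the departure from the summed single knockdowns 1 member was above and 3 were below, with 21.4% of genes called, 9.48% above and 11.9% below. In triple KD against SAFB1 KD all 5 were called (34.9% of genes), against SLTM KD 3 were called (36.3% of genes), and 2 were called between SAFB1 KD and SLTM KD (16.0% of genes).

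The levels of both hosts are set beside those of 3 other hosts as a description. POC1B, MBTPS2 and KYAT3 overlap another coding gene on their own strand (GALNT4, YY2 and RBMXL1) and were chosen with their fall in triple KD known, as ALG11 and HM13 were for lacking a strong one. The ratios of ALG11 and HM13 to these hosts were 2 of the 4 over which p was adjusted above, and since the choice of genes fixes the difference, no p is given for them. In triple KD, MBTPS2 stood at 30.2% of its control level, KYAT3 at 30.8% and POC1B at 9.67%, with log2 fold changes of -1.73, -1.70 and -3.37. HM13 stood at 77.3% of control and ALG11 at 127%. Relative to the mean of those 3 hosts on the log2 scale, ALG11 was 2.61 higher in triple KD than in control and HM13 1.89 higher. The nested genes came with the same choice of loci, so their contrast with UTP14C is a description too. From control to triple KD, YY2 rose by 2.46 on the log2 scale (1.91 to 10.5 CPM) and RBMXL1 by 0.84 (33.4 to 59.9 CPM). GALNT4, most of whose exon bases are shared with another annotated gene, rose by 0.80 (adjusted p = 0.00779) at a very low level (0.360 to 0.622 CPM). UTP14C fell. For mouse fibroblasts depleted of SAFB proteins, the study reports that H13, the mouse HM13, fell while Mcts2, the mouse MCTS2, rose. The study lists this pair as specific to mouse.

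**Figure D5:**
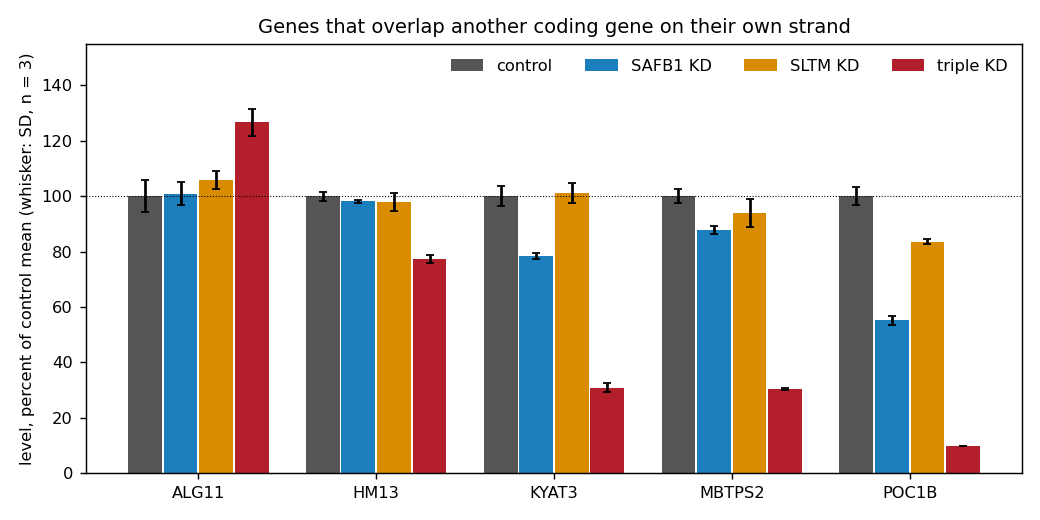
Mean level of 5 host genes in each group as a percentage of the control mean (bars, from 0) with the SD of 3 libraries (whiskers). In triple KD ALG11 is at 127% and HM13 at 77.3%, while KYAT3, MBTPS2 and POC1B are at 30.8%, 30.2% and 9.67%.

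Per length the members cover a wide range. Per kb of annotated exon, control levels were 22.1 CPM for HM13, 20.6 for UTP14A, 5.26 for MCTS1, 1.94 for UTP14C and 0.745 for ALG11. Counted per kb of exon shared with no other gene, ALG11 came to 1.15 and HM13 to 24.0, and UTP14C has no such bases, so the order of UTP14C and ALG11 cannot be set from these files. HM13 and UTP14A, with 22.1 ± 0.356 and 20.6 ± 0.522 (SD, n = 3), did not overlap in control, but their distance is small beside the uncertainty of the exon models. In triple KD HM13, at 17.1 ± 0.340, was below UTP14A, at 19.9 ± 0.255, and the order of the others did not change.

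Genes next to the members gave further context. CUL4B, which encodes the scaffold of a ubiquitin ligase and overlaps MCTS1 on the opposite strand, fell with it in triple KD, from 126 CPM ± 1.08 to 96.3 ± 0.931 (log2 fold change -0.39, adjusted p = 2.96e-21), and was not called in SAFB1 KD or SLTM KD (-0.04 and -0.07, adjusted p = 0.311 and 0.0596). C1GALT1C1, 4515 bases from MCTS1 on the opposite strand and a chaperone of O-glycan synthesis, had a log2 fold change of -0.14 in both SLTM KD and triple KD, called lower (adjusted p = 0.00581 and 0.000784). ATP7B, a copper-transporting ATPase 266 bases from ALG11 on the opposite strand, rose with ALG11 in triple KD (0.21, adjusted p = 1.33e-07) and not in the single knockdowns (0.06 and 0.03, adjusted p = 0.308 and 0.668). Reads of opposite strands were counted separately, and whether the neighbours and the members share a cause was not tested. NEK5, which overlaps ALG11 on the opposite strand, and ID1, a transcriptional inhibitor 27360 bases from HM13, were not called (triple KD, -0.24 and 0.08, adjusted p = 0.440 and 0.243).

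The genes whose log2 CPM followed the members most closely over the 12 libraries were found among 11307 genes averaging 5 CPM or more. The libraries share groups and normalisation, so these correlations are descriptive. For UTP14A the closest was NOL11 (Pearson r = 0.97), like UTP14A a protein of the small-subunit processome, followed by CDK7 and GUCY1A1 (both 0.95). For UTP14C they were RNF141, NAA50 and UPRT (all 0.96) and for ALG11 CENPH, WDR27 and WDR70 (all 0.96). For HM13 they were B3GAT3, RABL6 and PRKAR1B (all 0.99) and for MCTS1 NLRC5 (0.99), S100A11 (0.98) and GTF2I (0.98). HM13 and MCTS1 correlated with each other at 0.98, ALG11 with HM13 at -0.92, and UTP14C with its host ALG11 at -0.53 and with its parent UTP14A at 0.37.

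The pathways in which the members work changed in both directions in triple KD, in which 40.3% of all genes tested were called (19.4% higher and 20.9% lower). These shares cover all genes with at least 10 counts over the 12 libraries, and none of the lists was matched to them by level. Of 50 other genes listed for the processome and small-subunit maturation, 9 were called higher and 26 lower. Their median log2 fold change was -0.07, beside a median of -0.0044 over all genes tested. BYSL, a factor of small-subunit maturation, fell from 86.3 CPM to 49.4 (-0.80, adjusted p = 2.63e-34), NOB1, the endonuclease that makes the 3′ end of 18S ribosomal RNA, from 116 to 85.9 (-0.44), and KRR1 and HEATR1 had log2 fold changes of -0.38 and -0.33. UTP14A was not called in triple KD, and neither were 15 of these 50.

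Of 34 genes of N-glycan assembly and transfer, the pathway of ALG11, 9 were called higher and 19 lower (median -0.09), beside 19.4% and 20.9% of all genes. The members with the smallest adjusted p all fell: MAGT1, an oligosaccharyltransferase subunit, from 238 CPM to 160 (-0.57, adjusted p = 2.66e-31), SRD5A3, which makes dolichol, from 20.6 to 11.3 (-0.87), and the glucosyltransferase genes ALG10B and ALG6, with log2 fold changes of -0.88 and -0.52. ALG11 is not counted in this list. Of 18 tested genes (of 19) of signal peptide processing and intramembrane aspartyl proteases, the group of HM13, 9 were called higher and 6 lower (median 0.05), again beside 19.4% and 20.9%. SRPRA, a subunit of the signal recognition particle receptor, rose from 119 CPM to 202 (0.76, adjusted p = 1.14e-37), DERL1, which acts in the export of misfolded proteins from the endoplasmic reticulum, from 46.7 to 65.6 (0.49), and SPPL3, a relative of HM13, from 50.1 to 68.2 (0.45), while PSEN2, a catalytic subunit of γ-secretase, fell from 28.4 to 21.3 (-0.42).

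Of 12 genes of ribosome recycling and reinitiation, the group of MCTS1, 1 was called higher and 7 lower (median -0.09), where 40.3% of all genes were called. The 1 that rose was EIF2D, a single protein with domains like those of MCTS1 and DENR, from 66.1 CPM ± 0.221 to 83.9 ± 1.60 (SD, n = 3), with a log2 fold change of 0.34 (adjusted p = 2.87e-17). EIF1AX, an initiation factor, fell from 345 CPM to 252 (-0.45, adjusted p = 4.29e-24), ABCE1, which splits ribosomes, from 220 to 179 (-0.30, adjusted p = 3.52e-17) and the release factor gene ETF1 from 394 to 361 (-0.13, adjusted p = 1.31e-07).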

How the data were processed

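Per the study's methods, the authors trimmed reads with cutadapt 4.1, aligned them in several passes to GRCh38 with STAR 2.7.9a, and counted uniquely mapped reads per gene on the reverse strand with GENCODE release 29 models. The deposited values were these raw counts, without normalisation or pooling, in a file for each library. Each file held 58780 gene IDs, of which 58207 (99.0%) were matched to GENCODE release 44 for symbols and exons, since the models of release 29 were not used here. Groups came from the sample titles, and the submitters described the 3 libraries of a group as biological replicates. The edgeR p-values rest on the spread among replicate libraries, pooled over the 4 groups for each gene and moderated across genes.

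Genes with at least 10 counts over the 12 libraries were fitted with edgeR 4.0.16 in R 4.3.3 (TMM, 1 fit with a group term, two-sided quasi-likelihood F tests, Benjamini-Hochberg adjustment over 26688 genes, called under 0.05). A contrast of the same fit subtracted both single knockdown changes from that of triple KD. The subtracted sum had no SAFB2 knockdown, although triple KD also lowered SAFB2. Ratios within a library were compared by exact two-sided permutation tests. The fit was tested on simulated data. Coding sequences of canonical transcripts were read from GRCh38 and aligned with Biopython 1.88. Alternatives were upper-quartile scaling, DESeq2 1.42.0, limma-voom (limma 3.58.1), other filters, only the libraries compared, the replicate number as a block, and leaving out each library. The members, the 4 pathway lists and the tests were chosen with earlier results of these data known. Named genes were the members, the siRNA targets, genes overlapping or within 50 kb of a member, the 4 called genes of each list with the smallest adjusted p in triple KD, the 3 genes most correlated with each member, and 3 other hosts with their nested genes. Of the marker genes looked up, 1 is not reported here.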

Additional observations from a re-analysis of the deposited data

How the results depend on the processing

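All calls of members against control in triple KD and of UTP14C in SLTM KD held under upper-quartile scaling, DESeq2, limma-voom, the other filters, the fit of only the libraries compared, and without each library in turn. Of the members' results under alternatives, 620 kept their direction and call, 8 lost a call and 32, all of them not called, changed sign. Those that changed sign outside the omission of a library were UTP14A in SLTM KD (0.013 with upper-quartile scaling), HM13 in SAFB1 KD against SLTM KD (-0.016 with upper-quartile scaling and -7.27e-05 with only the libraries compared) and MCTS1 in SAFB1 KD (-0.0078 with no filter on low counts and -0.00074 with only the libraries compared). The cause was not tested.

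Leaving out 1 library at a time gave the following log2 ranges. UTP14C ran from -0.13 to 0.0054 in SAFB1 KD, from -0.31 to -0.17 in triple KD against SAFB1 KD, from -0.052 to 0.10 against SLTM KD, from 0.20 to 0.34 in SAFB1 KD against SLTM KD, and from -0.0098 to 0.15 beyond the summed knockdowns. ALG11 ran from -0.033 to 0.055 in SAFB1 KD and from 0.20 to 0.30 beyond the sum. UTP14A ran from 0.071 to 0.10 in SAFB1 KD, from -0.024 to 0.0036 in SLTM KD and from 0.078 to 0.11 in SAFB1 KD against SLTM KD. HM13 in SAFB1 KD against SLTM KD ran from -0.021 to 0.025 and MCTS1 in SAFB1 KD from -0.011 to 0.011. The ratio of UTP14C to ALG11 in SAFB1 KD ran from -0.14 to 0.021.

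The numbers of list genes called in triple KD stayed within 1.5 times, but those in the single knockdowns were few and moved. In SAFB1 KD the processome count of 8 ran from 4 to 8 without 1 library (4 or 5 without each control library, SAFB1 KD replicate 2 or 3, or triple KD replicate 2), the N-glycan count of 6 from 2 to 8 (3 without control replicate 1 and 2 without SAFB1 KD replicate 3), the signal peptide count of 2 from 0 to 4 (0 or 1 without control replicate 1 or 2 or SAFB1 KD replicate 1 or 2, and 4 without SAFB1 KD replicate 3) and the recycling count of 2 from 0 to 2 (0 or 1 without control replicate 1 or 2 or any SAFB1 KD library). In SLTM KD the processome count of 7 ran from 4 to 8 (4 without control replicate 2 or 3) and the N-glycan count of 9 from 4 to 10 (4 or 5 without control replicate 1 or 2 or SLTM KD replicate 1 or 3). In SLTM KD 3 signal peptide genes were called, against 6 with upper-quartile scaling and 5 with filterByExpr, and in SAFB1 KD the 2 recycling genes became 1 with filterByExpr and 0 with DESeq2.

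Replicate numbers were not taken to pair the libraries, because the correlations of same-numbered libraries' deviations, -0.04 to 0.20 with a median of 0.12, were not all over 0.1. Differently numbered libraries had a median of -0.04, and 11 of 12 libraries correlated best with their own number, a hint of pairing from the data and not from the design. UTP14C was lowest in replicate 3 of every group, and the exact tests of its ratios took no account of replicate number. With the replicate number as a block the list counts became 13 (processome), 11 (N-glycan) and 4 (signal peptide) in SAFB1 KD and 5 (signal peptide) in SLTM KD, and no call of a member against control changed. The low counts of UTP14C and ALG11, and the exons that both share, limit what can be said of that locus.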

Other observations

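The siRNAs themselves were compared with the members, because short guide strands can also act on partly matching RNAs. The sense strands listed by the study are shown with the 7 bases that face bases 2 to 8 of the guide in capitals.
SAFB1: ggaccaagaugAUCAGAAatt
SAFB2: ggacggucgugAUGGAUAatt
SLTM: gcauuagaauaAUUCGUGatt

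These words were looked up on the sense strand of the annotated 3′ UTRs of canonical transcripts, 19535 in all. The SAFB1 word was in 15.7% of them, the SAFB2 word in 9.40% and the SLTM word in 2.05%. The 3′ UTRs of UTP14C (2495 bases), ALG11 (5010 bases), UTP14A (144 bases) and HM13 (324 bases) held none of the 3 words. Among the coding sequences, that of ALG11 held the SAFB1 word 1 time, and those of the other 4 members held none of the words. The 3′ UTR of MCTS1, which at 8895 bases is the longest of the 5, held the SAFB1 word 1 time, the SAFB2 word 2 times and the SLTM word 2 times. MCTS1 was at 56.8 CPM ± 1.35 in SAFB1 KD and 55.8 ± 0.623 in SLTM KD, beside 56.6 ± 0.457 in control (SD, n = 3), and at 40.8 ± 2.72 in triple KD. A matching word is a description of the sequence, and action of a guide strand on these RNAs was not tested.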
